A study of Homo sapiens with 18 samples.

Results

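The desmosome genes followed here were 10 genes of the 35933 that have values in the deposited expression table: DSG2, DSG3, DSC2, DSC3, DSP, PKP1, PKP2, PKP3, JUP and PERP. They were chosen by symbol, as genes whose proteins build the desmosome, and all 10 were found. RNA had been sequenced from 3 human breast lines of the MCF10 series, each with an arm that received a control CRISPR construct and an arm whose CRISPR targeted METTL3, the writer of the m6A mark on RNA. MCF10A is a non-tumorigenic breast epithelial line, MCF10AT1 is its derivative carrying activated HRAS, and MCF10CA1h is a carcinoma line grown from MCF10AT1 xenografts. Each of the 6 arms had 3 libraries, with the replicate letters a, b and c. Cas9 and the guide were given by transfection of a plasmid with an mCherry marker to all 6 arms, the controls included, and sorted cells were then grown from single cells. More than 1 knockdown line was selected in each background, and the transcriptome comparison is described as the control against 1 of them, without its name. The 3 libraries of an arm thus stand for 1 selected line, the p-values measure the spread between these libraries, which may be technical, and an effect of the knockdown cannot be told apart from a difference between clones.

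Desmosomes are the spot-like junctions that tie the keratin filaments of neighbouring epithelial cells together. Desmogleins (DSG) and desmocollins (DSC) are cadherins that meet their partners in the gap between cells, plakoglobin (JUP) and the plakophilins (PKP) are armadillo proteins that bind the cadherin tails inside the cell, and desmoplakin (DSP) links these to keratin. DSG2, DSC2 and PKP2 are the forms of simple epithelia. DSG3 and DSC3 are known for the basal layers of stratified epithelia and PKP1 for their upper layers. Breast myoepithelial cells carry several of these forms. PERP is a tetraspan membrane protein needed for desmosome assembly in stratified epithelia.

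The gene models placed the 4 cadherin genes together on chromosome 18 of hg38 (GENCODE v44 models), with DSC3 at chr18:30989365-31042815 and DSC2 at chr18:31058840-31102522 on the minus strand, and DSG3 at chr18:31447741-31478702 and DSG2 at chr18:31498177-31549008 on the plus strand. DSP lay at chr6:7541338-7586714 and PERP at chr6:138088505-138107419, on the same chromosome but far apart. The armadillo genes were spread over chr1:201283452-201332993 (PKP1), chr12:32790745-32896798 (PKP2), chr11:392614-404908 (PKP3) and chr17:41754604-41786931 (JUP). The reference transcripts of the members ran from 2817 bases in PKP3 to 12331 bases in DSC2, with a median of 5452.5 bases beside 2926 over all genes whose mean reached 10. DSC2, with 39.0% GC, DSC3, with 39.2%, PERP, with 40.4%, DSG2, with 41.2%, and DSG3, with 42.5%, were the members richest in A and T, while PKP3 held 66.7% GC and JUP 61.5%. GGACT, the commonest form of the m6A motif, stood 0.81 times per kb in the median member and 0.92 times in the median gene, and not at all in the JUP transcript.

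METTL3 RNA itself, as the target, changed in MCF10CA1h alone by the test used here. Its mean normalized count went from 632 ± 154 (SD, n = 3) to 810 ± 261 (SD, n = 3) in MCF10A and from 930 ± 111 to 823 ± 75.2 in MCF10AT1, and from 1135 ± 132 to 804 ± 52.3 in MCF10CA1h (limma with Benjamini-Hochberg adjustment, adjusted p = 0.618, 0.707 and 0.0234). In the same order, exact permutation of the libraries (two-sided) gave p = 0.3, 0.3 and 0.1, where groups of 3 cannot reach a p below 0.1. Since the RNA did not go down in MCF10A, the arm is called the labelled knockdown throughout. A gene's RNA value does not show small insertions or deletions at the cut. The study reported less METTL3 protein by Western blot in the knockdown lines of each background, moderately so in MCF10CA1h. It also reported lower METTL3 RNA by real-time PCR, to a lesser degree than the protein. Its m6A assay of total RNA gave a significant decrease in MCF10AT1 and MCF10CA1h and a non-significant one in MCF10A. Which of the knockdown lines was sequenced was not named. The library sums lay between 21347352 and 31681834 normalized counts. Read depth is unknown, since the table holds no reads, and counting errors cannot be given. MCF10AT1 control libraries b and c stood apart from a. In control b, genes with transcripts of at least 4823.5 bases were lower than the group mean by a median of -0.38 on the log2 scale and genes with transcripts of at most 1682 bases were 0.41 higher, and in control c the same genes stood at 0.47 and -0.49. Of the other libraries, the most alike were MCF10AT1 labelled knockdown c, with 0.25 and -0.23, and MCF10A control a, with -0.25 and 0.22.

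In the control libraries 9 of the 10 members were well expressed and PKP1 was near the bottom of the scale. On the scale of normalized counts per kb of reference transcript in MCF10A, PERP was highest at 4479 ± 649 (SD, n = 3) and JUP came next at 4026 ± 622, and their libraries overlapped. DSG3 (2347 ± 438), DSP (2011 ± 399) and PKP3 (1620.4 ± 135) followed, each overlapping with its neighbour. DSG2 stood at 1069 ± 353 per kb and overlapped with PKP2 at 679 ± 34.4. DSC3 at 349 ± 145, DSC2 at 131 ± 25.1 and PKP1 at 3.0 ± 1.7 were set apart from their neighbours in that order. The desmogleins were therefore more abundant per kb than the desmocollins in MCF10A.

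In the MCF10AT1 control JUP (2098 ± 214 per kb) and PERP (2069 ± 739 per kb) were the highest pair, and from JUP down to DSC2 the libraries of each gene overlapped with those of the next. In the MCF10CA1h control JUP was highest at 2378 ± 117 per kb, apart from PERP at 1736 ± 60.6 and PKP3 at 1707 ± 18.3, which overlapped. DSP followed at 858 ± 115 per kb, then DSG3 (350.5 ± 51.9), DSG2 (346 ± 69.9) and PKP2 (317 ± 32.4), each overlapping with the next. DSC3 (179.7 ± 35.1 per kb), DSC2 (31.2 ± 4.4 per kb) and PKP1 (1.0 ± 0.4 per kb) were each apart from their neighbour. DSC2 and PKP1 were thus the 2 lowest members per kb in all 3 control lines. These lengths are those of 1 reference transcript per gene, which need not be the form these cells make.

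**Figure D1:**
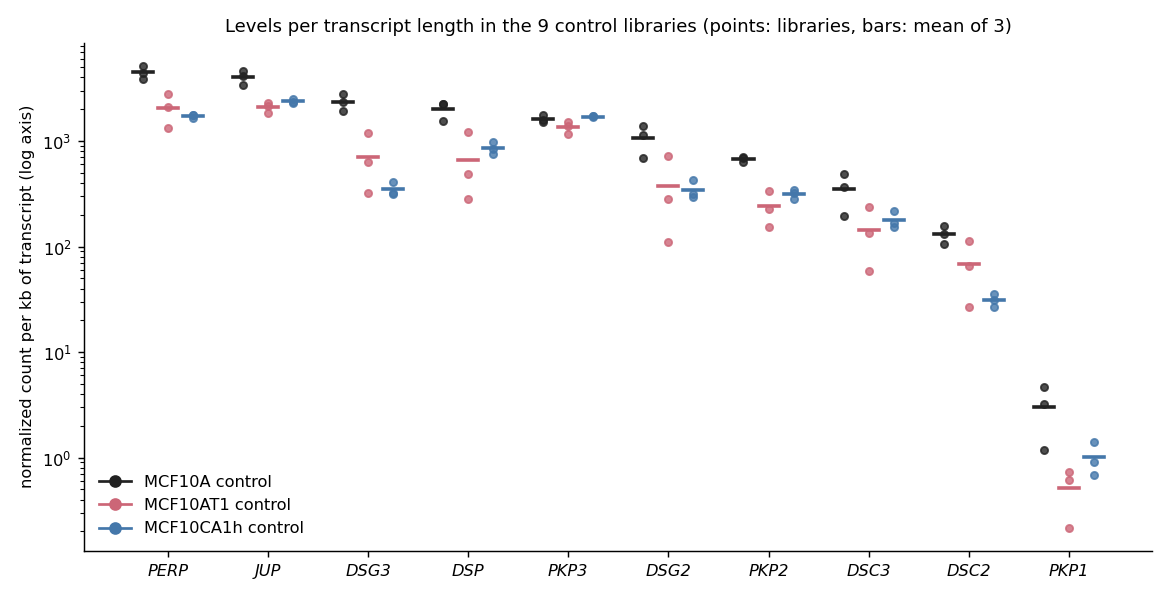
Normalized count per kb of reference transcript (log axis) for the 10 desmosome genes in the control libraries of MCF10A, MCF10AT1 and MCF10CA1h, ordered by the MCF10A mean; points are libraries and bars are means of 3. PERP and JUP sit at the top in all 3 lines and PKP1 at the bottom, and in MCF10AT1 the points of the 4 cadherin genes and DSP spread by 3.74-fold or more.

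Along the series of control lines, 6 of the 9 members tested were lower in MCF10AT1 than in MCF10A and none was higher, in a fit of the 9 control libraries with limma and Benjamini-Hochberg adjustment at 0.05, where 28.1% of all genes tested were called and 14.7% were called lower. PKP1 was below the filter of this fit, a mean of at least 10. On the log2 scale of the normalized count plus 1, the called differences were -1.91 (SE 0.40) for DSG3, -1.85 (SE 0.57) for DSG2, -1.84 (SE 0.44) for DSP, -1.58 (SE 0.27) for PKP2, -1.17 (SE 0.26) for PERP and -0.93 (SE 0.18) for JUP, with adjusted p from 0.00482 to 0.0379. DSC3 at -1.41 (adjusted p = 0.0554), DSC2 at -1.15 (adjusted p = 0.0746) and PKP3 at -0.26 (adjusted p = 0.237) did not pass. The median over the 9 was -1.41, beside -0.01 over all genes tested. The count lay between 4 and 8 members over 15 alternatives, while the calls over all genes, 4391 in the main fit, lay between 1661 and 8142. DSG2 lost its call in 7 of them, with no filter (adjusted p = 0.136), no intensity trend (0.0564), equal sums per library (0.058) and without MCF10AT1 control a or b or MCF10A control b or c (0.0771 to 0.130). DSP lost it in 4, with no filter (adjusted p = 0.071) and without MCF10AT1 control a or MCF10A control b or c (0.0619 to 0.0664). With the length and GC trend removed PERP went to -0.59 and lost its call (adjusted p = 0.0852), DSC2 went to -0.15 and DSC3 to -0.56, and PKP3 was called at -0.71 (adjusted p = 0.0118). Without MCF10AT1 control c both desmocollins passed as well (adjusted p = 0.00472 for DSC2 and 0.00581 for DSC3), in a fit that called 8142 of 15613 genes.

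MCF10CA1h controls held less RNA of 5 of the 9 tested members than MCF10A controls, and again no member was higher, against a background of 37.8% of genes called and 18.8% called lower. These were DSG3 at -2.74 (SE 0.40), DSC2 at -2.06 (SE 0.44), PERP at -1.36 (SE 0.26), PKP2 at -1.10 (SE 0.27) and JUP at -0.75 (SE 0.18), with adjusted p from 0.00112 to 0.0113 from limma. DSG2 at -1.59 (limma adjusted p = 0.0506) and DSP at -1.22 (limma adjusted p = 0.0546) lay just outside the threshold. DSC3 differed by -0.88 (limma adjusted p = 0.179), and PKP3 by 0.08 (95% interval -0.29 to 0.44). The fit pools the spread of all control libraries, the MCF10AT1 ones included. The SEs of DSG2 (0.57) and DSP (0.44) thus also hold the spread of the MCF10AT1 controls, 6.5-fold and 4.33-fold. Between the MCF10CA1h and MCF10AT1 controls none of the 9 passed, where 21.8% of all genes did. None of the 9 reached an unadjusted p under 0.05 either, and the differences ran from -0.92 in DSC2 to 0.63 in DSP. Their intervals are wide, that of DSP running from -0.36 to 1.62. Without MCF10AT1 control b, DSG3 and DSC2 were called lower in MCF10CA1h (adjusted p = 0.0121 and 0.00685), and without control c, DSP and PKP2 were called higher (adjusted p = 0.00753 and 0.0187). Over all genes these fits called 3917 of 15588 and 5593 of 15613, against 3410 of 15652 with all libraries.

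The largest changes of the desmosome genes were found in MCF10AT1, where 7 of the 9 members tested fell in the labelled knockdown, 2 did not pass the test and none was higher. In that line 13.0% of all genes tested were called and 5.96% were called lower. With the replicate letter as a block all 9 tested members passed, in a fit that called 3939 of 16050 genes, 1854 of them lower. The 3 desmosomal cadherins DSG3, DSC2 and DSC3 were left with 0.323%, 0.893% and 2.42% of their control mean, and DSP with 6.50%. Every member's 3 labelled knockdown libraries lay below its 3 control libraries, which held for 9 of the 9 tested members where 32.8% of all genes had groups that did not overlap. The median log2 change over the 9 was -2.36, beside 0.02 over all genes tested. Fewer cells with desmosomes and less desmosome RNA per cell cannot be told apart in these bulk samples.

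DSG3, the desmoglein of basal stratified layers and the main pemphigus vulgaris antigen, had 3494, 1776 and 6641 normalized counts in control replicates a, b and c of MCF10AT1 and 6.9, 15.8 and 15.9 in the labelled knockdown. Every control library was far above every labelled knockdown library. The mean went from 3970.3 ± 2467 (SD, n = 3) to 12.8 ± 5.2, or 0.323% of the control, a log2 change of -8.05 (SE 0.55, limma adjusted p = 8.1e-05). DSC2, the desmocollin of simple and most other epithelia, had 806, 332 and 1405 in the controls and 11.7, 6.3 and 4.7 in the labelled knockdown. It kept 0.893% of its control mean, with a log2 change of -6.48 (SE 0.61, adjusted p = 0.000346 from limma). DSC3, its counterpart of basal layers, had 1017, 441 and 1804 in the controls against 49.7, 9.1 and 20.2. That was 2.42% of the control mean and a log2 change of -5.40 (SE 0.70, limma adjusted p = 0.0017).

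DSG2, the desmoglein found in all tissues with desmosomes, showed a smaller difference. It had 1621, 634 and 4116 normalized counts in the MCF10AT1 controls, a spread of 6.5-fold, and 346, 287 and 601 in the labelled knockdown. The highest labelled knockdown library came close to control b without reaching it. The mean was 19.4% of the control, and the log2 change of -2.05 (SE 0.63) missed the threshold (limma adjusted p = 0.0718, unadjusted p = 0.0115). With the replicate letter as a block it passed (SE 0.32, adjusted p = 0.000698), as it did without control b (-2.72, adjusted p = 0.0119). In controls b and c the 4 cadherins moved in the direction of the long genes, and further. Relative to their group mean they stood from -1.35 to -0.96 on the log2 scale in control b, and from 0.94 to 1.35 in c. The long genes stood at -0.38 and 0.47 there, and genes of at most 42.1% GC at -0.36 and 0.34. Whether length, GC content or another difference between these libraries lay behind it was not tested. When a trend with length and GC content was taken out of every library, the log2 changes were -7.76 for DSG3, -6.17 for DSC2, -5.06 for DSC3 and -1.74 for DSG2, and all 4 passed (adjusted p for DSG2 = 0.0332).

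**Figure D2:**
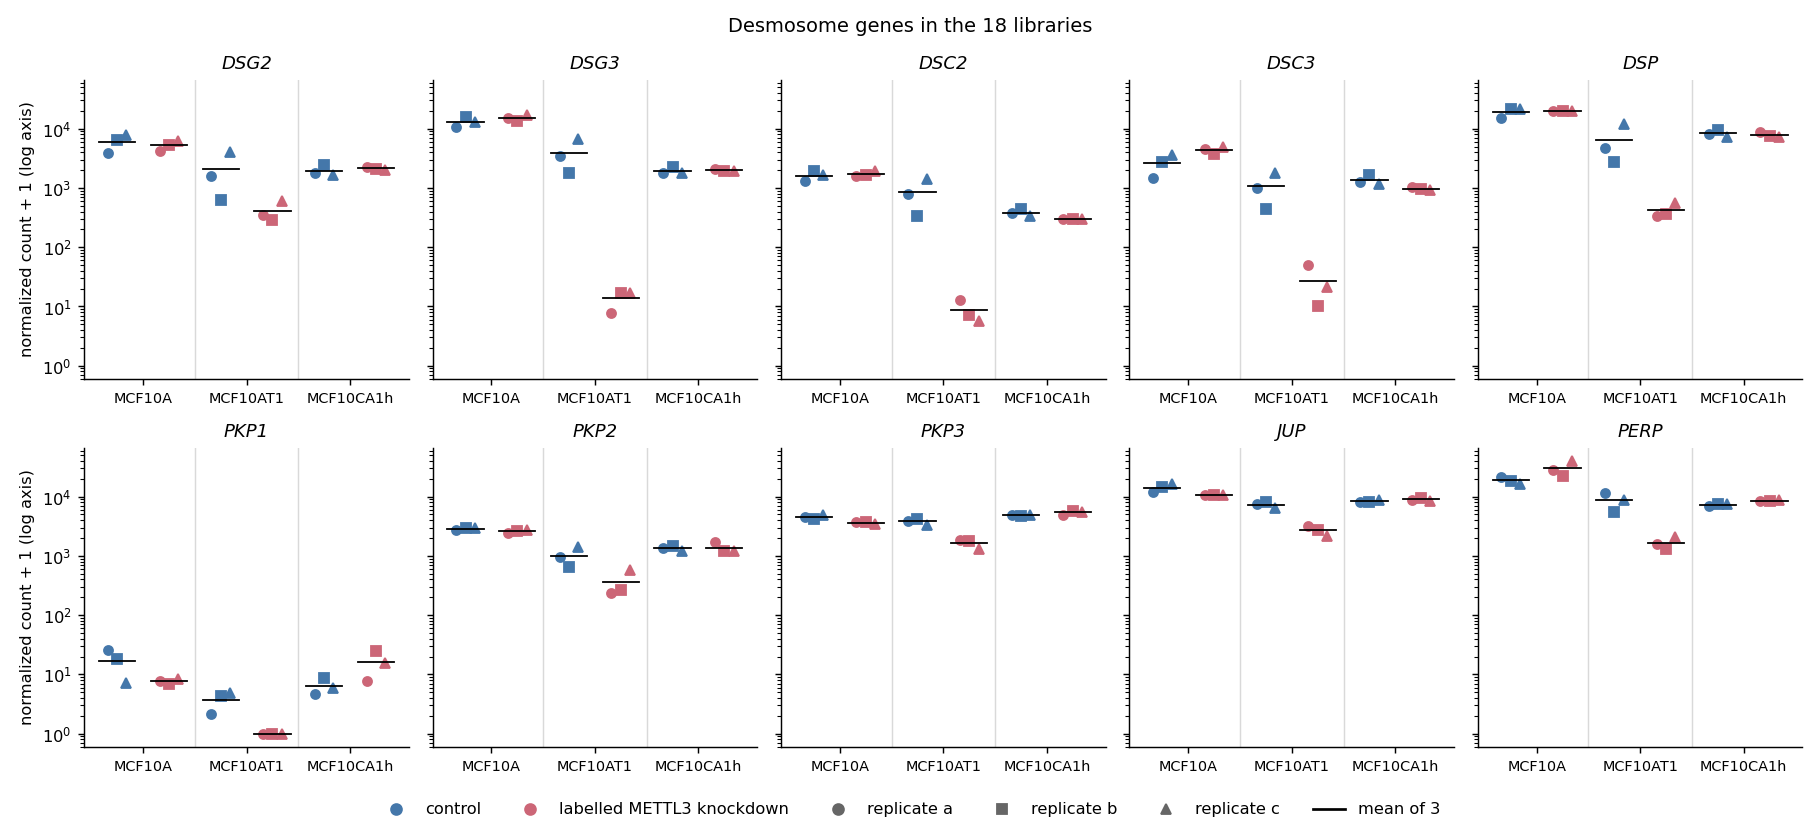
Normalized count plus 1 (log axis) of each desmosome gene in the 18 libraries, by line, arm (colour) and replicate letter (marker), with bars at the mean of 3. In MCF10AT1 the labelled knockdown points of DSG3, DSC2 and DSC3 lie between 4.7 and 49.7 normalized counts while their controls lie between 332 and 6641, and the arms of MCF10A and MCF10CA1h lie close together for 9 of the 10 genes, PKP1 being near 0 everywhere.

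Promoters are shown for the cadherins that fell most and for DSP, since these 4 moved together while their starts differ in sequence. A promoter of 300 bases, 250 before and 50 after the annotated start, was found for 8 of the 10 members in RefSeq (GRCh38.p14), with 2 starts for DSC2 and 2 for JUP. The 6-base sequence CACCTG, read on both strands (so also CAGGTG), is bound by the zinc finger repressors ZEB1, ZEB2 and SNAI2 and is 1 form of the wider CANNTG motif, which overlaps it. It is set in capitals in the sequences, which are written 5′ to 3′ on the strand of the gene. The DSG3 promoter is chr18:31447491-31447790 (plus strand), that of DSC2 is the start farther upstream at chr18:31102372-31102671 (minus strand), that of DSC3 is chr18:31042693-31042992 (minus strand), and that of DSP is chr6:7541421-7541720 (plus strand).
DSG3: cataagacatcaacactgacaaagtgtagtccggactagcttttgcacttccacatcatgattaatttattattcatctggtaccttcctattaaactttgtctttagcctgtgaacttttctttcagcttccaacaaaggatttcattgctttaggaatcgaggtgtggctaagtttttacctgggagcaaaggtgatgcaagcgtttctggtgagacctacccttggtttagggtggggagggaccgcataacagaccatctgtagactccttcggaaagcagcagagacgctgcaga
DSC2: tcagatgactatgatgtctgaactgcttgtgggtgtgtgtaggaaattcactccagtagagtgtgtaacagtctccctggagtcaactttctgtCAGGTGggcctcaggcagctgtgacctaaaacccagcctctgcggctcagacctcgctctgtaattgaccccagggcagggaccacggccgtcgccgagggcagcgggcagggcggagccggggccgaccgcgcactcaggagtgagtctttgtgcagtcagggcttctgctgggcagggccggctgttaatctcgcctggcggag
DSC3: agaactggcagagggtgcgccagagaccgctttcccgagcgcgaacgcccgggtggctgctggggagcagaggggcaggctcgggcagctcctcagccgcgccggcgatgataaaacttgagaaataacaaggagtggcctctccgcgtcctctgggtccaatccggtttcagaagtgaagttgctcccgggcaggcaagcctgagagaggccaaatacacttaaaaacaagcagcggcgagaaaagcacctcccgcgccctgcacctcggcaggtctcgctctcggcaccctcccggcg
DSP: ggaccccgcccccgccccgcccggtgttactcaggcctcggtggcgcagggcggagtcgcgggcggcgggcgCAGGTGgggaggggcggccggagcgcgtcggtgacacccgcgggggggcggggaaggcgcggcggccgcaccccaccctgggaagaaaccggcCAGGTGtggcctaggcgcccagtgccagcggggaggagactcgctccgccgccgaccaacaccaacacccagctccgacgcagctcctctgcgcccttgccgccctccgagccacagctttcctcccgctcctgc
DSP held CACCTG or its complement 2 times, at -178 and -85 from the start, DSC2 held it at -156 of the start shown and not at its other start, and DSG3 and DSC3 held none. Among the other members, DSG2 held it at -232 and -116 and JUP at -54 and -43 of 1 of its 2 starts, while PKP1 and PERP held none, so that 4 of the 10 member promoters had a match. The motif was found in 20.6% of all 35116 RefSeq promoters, and CANNTG in 68.7%. AACCGGTT, a form of the site of grainyhead-like factors, was in 0 of the 10 member promoters and in 0.134% of all. Members with and without CACCTG were among the 4 shown, which were picked for their fall in these data. PKP2 and PKP3 had no promoter to read, and a part of the motif in the fall was not tested.

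DSP, which anchors keratin to the plaque, fell as well. The MCF10AT1 controls held 4673, 2753 and 11929.6 normalized counts of it, and the labelled knockdown 336, 357 and 564. The log2 change was -3.71 (SE 0.51, limma adjusted p = 0.00235). DSP, like the cadherins, was lowest in control b and highest in control c, by -0.96 and 1.16 on the log2 scale. With no filter on low values its adjusted p rose to 0.0504, and in the other 14 alternatives it stayed past the threshold.

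Among the armadillo genes JUP and PKP3 fell, by less than the cadherins. JUP, shared between desmosomes and adherens junctions, had 7555, 7983 and 6524 normalized counts in the MCF10AT1 controls and 3185, 2773 and 2143 in the labelled knockdown, or 36.7% of the control mean, a log2 change of -1.46 (SE 0.26, limma adjusted p = 0.00826). PKP3, a plakophilin present in most epithelial layers, had 3933, 4228 and 3314 against 1884, 1794 and 1319, or 43.5%, a log2 change of -1.21 (SE 0.26, limma adjusted p = 0.0196). Their control libraries spread by 1.2-fold and 1.3-fold. Both stood above their group mean in control b, by 0.12 and 0.15 on the log2 scale. In control c both stood below it, at -0.17 and -0.20. The direction was opposite to that of the cadherins and was that of the short genes, though neither transcript is among these. Genes of at least 56.5% GC, as both are, stood at 0.20 in control b and -0.23 in control c. With the length and GC trend removed the log2 changes were -1.73 for JUP and -1.61 for PKP3. JUP missed the threshold without control a (adjusted p = 0.0521) or labelled knockdown b (adjusted p = 0.0533). PKP3 did so without control a (adjusted p = 0.0991) or labelled knockdown b (adjusted p = 0.0879) or c (adjusted p = 0.0585). PKP2, the plakophilin of simple epithelia and heart, had 969, 641 and 1432 in the controls and 238, 266 and 576 in the labelled knockdown, at 35.5% of the control mean. Its log2 change of -1.53 (SE 0.44) did not pass (limma adjusted p = 0.057), but did with the replicate letter as a block (SE 0.29, adjusted p = 0.0024). PKP1, the plakophilin of upper stratified layers, had 1.2, 3.2 and 3.9 in the controls and was listed at 0 in all 3 labelled knockdown libraries, too low for the test.

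PERP was the member with the highest mean normalized count in the MCF10AT1 controls, with 11738, 5538 and 8777, and had 1572, 1298 and 2072 in the labelled knockdown. It kept 19.0% of its control mean (log2 change -2.36, SE 0.34, limma adjusted p = 0.00301) and passed in all 15 alternatives. Summed over the 10 genes, desmosome RNA made up 0.132%, 0.077% and 0.215% of all normalized counts in MCF10AT1 controls a, b and c and 0.025%, 0.023% and 0.026% in the labelled knockdown. The ranges of the arms did not overlap.

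In MCF10A none of the 10 members passed the test, where 2.65% of all genes did, although 4 of the 10 had an unadjusted p under 0.05 and 4 of the 10 had arms that did not overlap, beside 23.9% of all genes. These 4 were the same genes, and they did not move in 1 direction. DSC3 had 1487.5, 2783 and 3675 normalized counts in the controls and 4482, 3701 and 4903 in the labelled knockdown, a log2 change of 0.81 (SE 0.31, limma adjusted p = 0.212). PERP had 21670.3, 18488 and 16246 against 28103, 22662 and 39606, a log2 change of 0.65 (SE 0.23, limma adjusted p = 0.184). JUP lay lower, with 11829, 14324 and 16176 against 10632, 10786 and 10502, and a log2 change of -0.40 (SE 0.16, limma adjusted p = 0.229). PKP3 had 4459, 4249 and 4986 against 3679.7, 3750.4 and 3483, a log2 change of -0.32 (SE 0.13, limma adjusted p = 0.239). No member passed under any of the 15 alternatives in MCF10A, while the calls over all genes, 409, lay between 52 and 1418 with 1 library left out and were 1172 with the replicate block.

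The other members of MCF10A had overlapping arms. DSG3 had 10709, 15590.2 and 12983 normalized counts in the controls and 15283, 13657 and 16875 in the labelled knockdown, with a 95% interval of the log2 change from -0.18 to 0.65. DSG2 had 3907, 6493 and 7871 against 4202, 5349 and 6316 (interval -0.79 to 0.46). DSC2 had 1306, 1924 and 1629.9 against 1577, 1634 and 1917 (interval -0.32 to 0.50). The intervals of these 3 cadherins include 0 and span changes in either direction. DSP was the steadiest in the labelled knockdown, at 20000.2, 20106 and 20296 beside 15040.4, 21648 and 21826 in the controls (interval -0.35 to 0.49). PKP2 had 2704, 2946 and 2964 against 2402, 2641 and 2785 (interval -0.45 to 0.17). PKP1 stayed low, at 24.7, 17.1 and 6.2 against 6.6, 6.0 and 7.2 (interval -2.29 to 0.33). MCF10A control a, the library with the length trend, was the lowest control for DSG2, DSG3, DSC2, DSC3, DSP, PKP2 and JUP, and the highest for PKP1 and PERP.

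MCF10CA1h likewise had none of 10 members past the threshold, against 12.8% of all genes, with 3 at an unadjusted p under 0.05, and 4 of 10 with arms that did not overlap beside 32.7% of all genes. The desmocollins and PERP were these 3, and PKP3 was the other member whose arms did not overlap. DSC3 came closest, with 1267, 1663 and 1157 normalized counts in the controls and 1026, 968 and 929 in the labelled knockdown, a log2 change of -0.47 (SE 0.14, limma adjusted p = 0.0531). It passed in 4 of 15 alternatives, with adjusted p from 0.0164 to 0.0455. DSC2 had 383, 439 and 331 against 300.3, 297 and 302, a log2 change of -0.35 (SE 0.15, limma adjusted p = 0.149). PERP lay the other way, with 7000.3, 7386 and 7480.4 against 8430.2, 8304 and 8886, a log2 change of 0.23 (SE 0.08, limma adjusted p = 0.0974). PKP3 had 4842, 4748 and 4833 against 4938, 5789 and 5599.9, a log2 change of 0.18 (SE 0.09, limma adjusted p = 0.238).

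Among the members with overlapping arms in MCF10CA1h, DSG3 had 1767, 2289 and 1810.1 normalized counts in the controls and 2066, 1904 and 1953 in the labelled knockdown, with a 95% interval of the log2 change from -0.24 to 0.28. DSG2 had 1811, 2425 and 1678 against 2288, 2132 and 1993 (interval -0.17 to 0.44). DSP had 8161, 9509 and 7300.2 against 8662, 7644 and 7399 (interval -0.32 to 0.18). In these 3 a change of the size seen in MCF10AT1 lay outside the interval. JUP had 8228, 7989 and 8788 against 8856.5, 9641 and 8595 (interval -0.08 to 0.31). PKP2 had 1373, 1460.3 and 1192 against 1684, 1187 and 1197 (interval -0.33 to 0.33). PKP1, at 3.7, 7.6 and 4.9 against 6.8, 23.9 and 14.4, had a log2 change of 1.23 that did not pass (limma adjusted p = 0.1995).

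**Figure D3:**
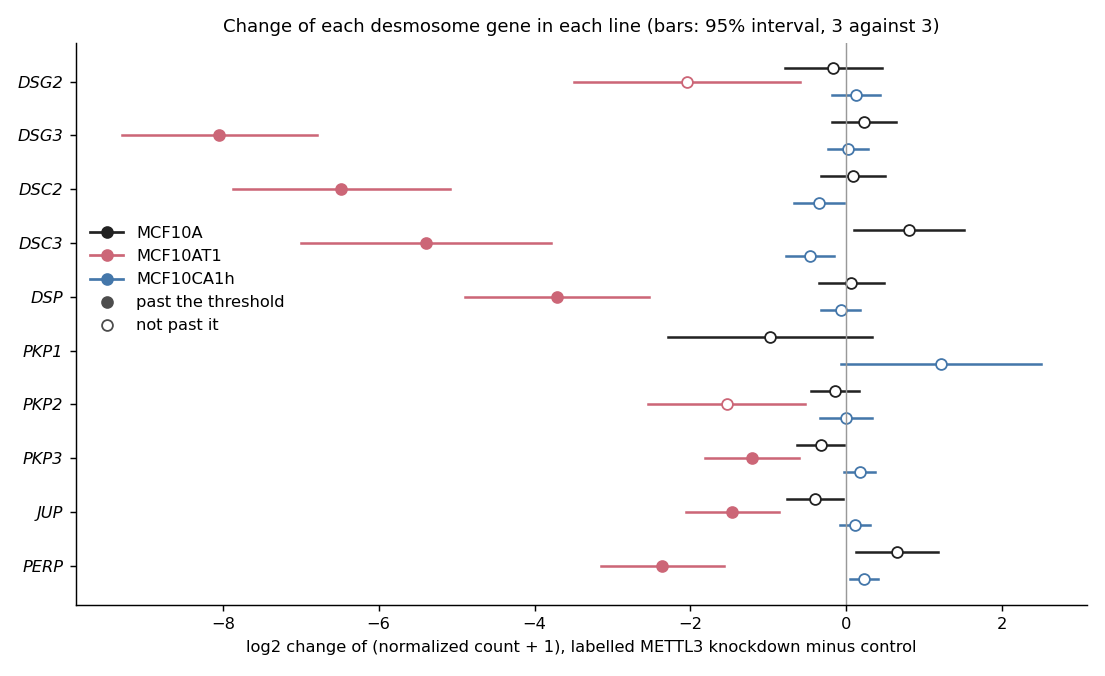
Log2 change of the normalized count plus 1 for each desmosome gene, labelled METTL3 knockdown minus control, in MCF10A, MCF10AT1 and MCF10CA1h; bars are 95% intervals from limma with 3 libraries against 3, filled points passed the threshold. The 9 MCF10AT1 points lie between -8.05 and -1.21 and 7 are filled, no point of the other lines is filled, and PKP1 has no MCF10AT1 point.

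The difference between lines was tested itself, as an interaction in 1 fit of all 18 libraries. The change in MCF10AT1 was lower than that in MCF10A for 8 of 9 members, where 21.6% of all genes differed and 10.5% were lower in MCF10AT1. DSG3 had the largest difference, -8.28 (SE 0.51, limma adjusted p = 8.98e-09), and PKP3 the smallest that passed, -0.88 (SE 0.22, limma adjusted p = 0.0072). DSG2 differed by -1.88 (SE 0.67, limma adjusted p = 0.0548), and passed with the replicate letter as a block (SE 0.35, adjusted p = 0.0022). Against MCF10AT1, the change in MCF10CA1h was higher for all 9 members tested, from 1.38 (SE 0.22) in PKP3 to 8.07 (SE 0.51) in DSG3, where 18.2% of all genes differed and 9.67% were higher. DSG2 kept that call in 11 of 20 alternatives, losing it with equal sums (adjusted p = 0.0536) and in 8 fits with a library left out (up to 0.0824), and PKP2 lost it without MCF10AT1 labelled knockdown b (0.0531) or MCF10CA1h labelled knockdown a (0.0557). Against MCF10A, PKP2 lost its call in MCF10AT1 in 5 fits with a library left out (0.0509 to 0.0728). Both sets of differences share the MCF10AT1 libraries. Between MCF10CA1h and MCF10A none of the 9 changes differed by the limma test (5.34% of all genes did). An unadjusted p under 0.05 was reached by 2, PKP3 at 0.50 (SE 0.22, limma adjusted p = 0.234) and JUP at 0.51 (SE 0.23, limma adjusted p = 0.254). The largest difference was that of DSC3, -1.27 (SE 0.72, limma adjusted p = 0.405). This fit pools the spread of all 18 libraries, the MCF10AT1 ones included. Fitted alone, the DSC3 change had an SE of 0.31 in MCF10A and 0.14 in MCF10CA1h. The test can thus miss a difference between these lines in genes that scatter in MCF10AT1.

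The paralogues did not move in step, so the make-up of the desmosomal RNA differed. Per kb, DSG3 was 68.8%, 74.1% and 62.2% of DSG2 plus DSG3 in MCF10AT1 controls a, b and c and 1.99%, 5.31% and 2.63% in the labelled knockdown. The desmoglein RNA that was left in those libraries was nearly all DSG2. In MCF10A that share was between 62.7% and 73.7% in the controls and between 72.3% and 78.8% in the labelled knockdown, and in MCF10CA1h between 49.1% and 52.4% and between 47.7% and 50.02%. DSC3, by contrast, was between 67.2% and 68.3% of the desmocollins per kb in the MCF10AT1 controls and between 70.1% and 87.5% in the labelled knockdown, where both desmocollins were near 0. PKP3 made up between 77.7% and 90.8% of PKP2 plus PKP3 in the controls of that line and between 77.5% and 92.2% in the labelled knockdown, which overlapped. The 4 cadherins together were between 8.5% and 25.3% of all desmosome RNA per kb in the MCF10AT1 controls and between 2.9% and 5.9% in the labelled knockdown, and JUP between 20.8% and 37.7% and between 32.5% and 43.0%. These shares are descriptions by library, with no test.

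**Figure D4:**
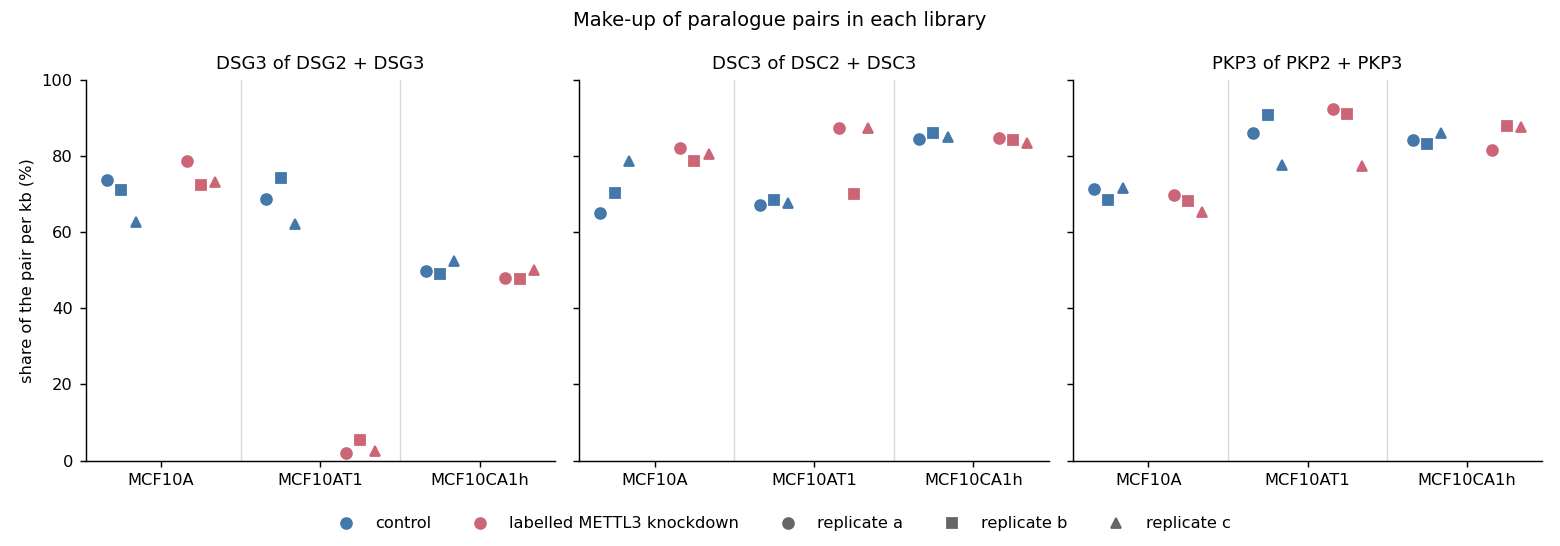
Share (%) of DSG3 in DSG2 plus DSG3, of DSC3 in DSC2 plus DSC3 and of PKP3 in PKP2 plus PKP3, per kb of reference transcript, in each of the 18 libraries by line, arm (colour) and replicate letter (marker). The DSG3 share of the MCF10AT1 labelled knockdown lies between 1.99% and 5.31% and that of every other library is 47.7% or higher.

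Other genes of the junction and its surroundings were counted from lists of the same kind. In MCF10AT1 the 7 other desmosome and plakin genes had 3 members high enough to test, and PKP4, a more distant plakophilin, was the 1 that passed (log2 change -0.90, SE 0.25, limma adjusted p = 0.0485). Of 12 keratins, the filaments that DSP holds, 8 fell and none rose: KRT15 at -8.13, KRT6A at -6.97, KRT6B at -6.69 and KRT17 at -4.47 were the largest, and the median over the 12 was -3.59. Of 9 adherens junction genes 4 fell: CDH1 (E-cadherin) from 3475, 2105 and 6138 to 11.6, 31.7 and 79.2 normalized counts, a log2 change of -6.79, NECTIN4 with -4.98, CTNND1 with -1.82 and CDH3 with -1.81. The median over the 9 was -0.86. Of 5 proteases and 1 kinase known to act on junctions, 3 fell, KLK7 at -7.46, KLK5 at -5.83 and ST14 at -3.55 on the log2 scale.

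Factors that act on epithelial genes moved in both directions in the same libraries. Of 10 epithelial transcription factors 5 fell and 1 rose in MCF10AT1, with OVOL2 at -7.92, ELF3 at -7.00, GRHL2 at -6.90, OVOL1 at -6.28 and GRHL1 at -3.47 among those that fell and GRHL3 at 3.91. GRHL1 and GRHL2 are grainyhead-like activators of junction genes. GRHL2 was also between 0 and 2.37 normalized counts in all 6 MCF10CA1h libraries, and OVOL1 between 0 and 2.67. The desmosome genes were expressed in these libraries, with PKP1 low. A link between any of these factors and the desmosome genes was not tested. Of 6 EMT factors 5 were tested and SNAI2 alone passed in the fit of this line, lower by -2.44 (SE 0.56, limma adjusted p = 0.0249). ZEB1 at 3.37 (limma adjusted p = 0.104) and ZEB2 at 3.31 (limma adjusted p = 0.0582) did not pass in that fit. Both are named for their motif after their values were seen. In the interaction of MCF10AT1 against MCF10A 4 of the 5 EMT factors passed, 3 higher and 1 lower, where 21.6% of all genes differed. For MCF10CA1h against MCF10AT1 2 passed, 1 higher and 1 lower, where 18.2% of all genes differed.

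The labelled cell type, breast epithelium, was checked against 8 epithelial markers, and the labelled knockdown of MCF10AT1 stood apart. EPCAM, CDH1, KRT5, KRT14 and KRT17 fell there, 5 of 8, with EPCAM going from 4291, 3494 and 3572 to 78.8, 115 and 126 normalized counts, and no marker was at 0. KRT18 and KRT8, the simple epithelial keratins, did not pass (limma adjusted p = 0.516 and 0.473) and had 28075, 27864 and 13608 and 19882, 15446 and 9545 there. TP63, the remaining marker, lay the other way, with a log2 change of 1.05 that did not pass. It had 216, 111 and 745 normalized counts in the controls and 517, 411 and 749 in the labelled knockdown. Of 12 mesenchymal or fibroblast markers 9 could be tested and 5 rose: FN1 by 10.08, THY1 by 9.61, COL3A1 by 8.95, CDH2 by 7.39 and VIM by 4.08 on the log2 scale. The summed level of the 12 was between 3787 and 5133 in the MCF10AT1 controls and between 118393 and 207123 in the labelled knockdown. Most of the latter was FN1, with a mean of 85441, and VIM, with a mean of 65860. COL1A2 and LUM were at 0 in all 3 controls, and LUM was between 0 and 0.46 in the labelled knockdown. COL1A1 and DCN, abundant in fibroblasts, had between 60.6 and 108 and between 429 and 976 there, without passing the test. In the controls COL1A1 had between 46.2 and 211 and DCN between 264 and 538. The mean of COL1A1 went from 117 to 81.8 and that of PDGFRB, which did not pass either, from 21.8 to 19.0. KRT8, KRT18, TP63, COL1A1, DCN, LUM and PDGFRB were named after their values were seen. Of 6 luminal markers FOXA1 alone passed, lower by -2.06. The part of this marker shift in the desmosome result was not tested.

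In MCF10CA1h, where none of the members passed, none of the 8 epithelial factors and 5 EMT factors tested passed either. Of the 11 keratins tested 7 rose, with KRT14 at 2.15, KRT6A at 1.42, KRT6C at 1.23 and KRT17 at 0.71 as the largest, and none fell. PPL (periplakin) and EVPL (envoplakin), plakins of the cornified envelope that also sit at desmosomes, fell by 1.13 and 0.37 on the log2 scale. Of the adherens junction genes CTNND1 rose by 0.49, and KLK7 fell by 2.28. FN1 rose by 1.92 and DCN by 0.87, and COL3A1 fell by 1.22. MUC1 was the luminal marker that rose, by 0.76. In MCF10A, KRT5 rose by 0.90 (limma adjusted p = 0.0455) and KLK7 fell by 3.08 (limma adjusted p = 0.00803), and no gene of the adherens junction, epithelial factor or EMT factor lists passed.

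**Figure D5:**
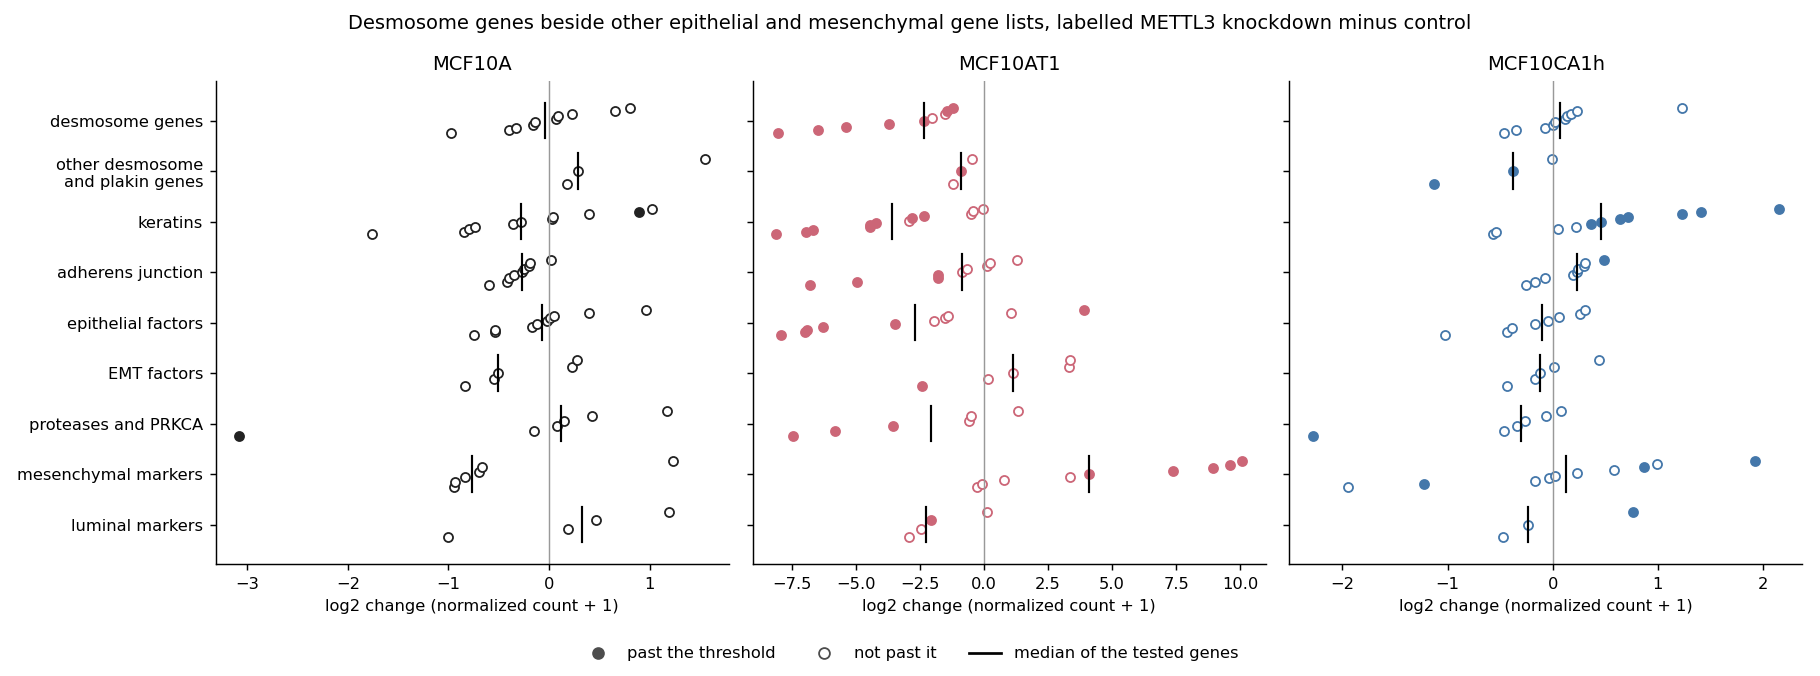
Log2 change of the normalized count plus 1, labelled METTL3 knockdown minus control, for the tested genes of each list in MCF10A, MCF10AT1 and MCF10CA1h (each panel has its own range); filled points passed the limma threshold and black bars are list medians. In MCF10AT1 the medians of the desmosome genes (-2.36), keratins (-3.59) and epithelial factors (-2.71) lie below 0 and that of the mesenchymal markers (4.08) above it.

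The profile of the desmosome genes over the 6 groups was compared with those of 12438 other genes, each centred on its own mean. The members' mean profile stood at 1.46 in the MCF10A control and 1.44 in its labelled knockdown, 0.04 and -3.37 in MCF10AT1, and 0.17 and 0.27 in MCF10CA1h, on the log2 scale. The nearest genes by root mean square difference were P2RY2 (0.18), ELOVL7 (0.20), CDS1 (0.29), CYP26B1 (0.30) and GRHL1 (0.31). P2RY2 is a nucleotide receptor, ELOVL7 a fatty acid elongase, CDS1 an enzyme of phospholipid synthesis and CYP26B1 a retinoic acid hydroxylase. Within the set, DSG2 and PKP2 were the nearest pair (0.27), PERP lay nearest to DSG2 (0.27), JUP to PKP2 (0.35), PKP3 to JUP (0.38), DSC2 and DSC3 to each other (0.54), DSP to DSC3 (0.63) and DSG3 to DSC2 (0.82). These are distances over 6 group means that share the same libraries.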

How the data were processed

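RNA was measured in 18 libraries. The library kit depleted ribosomal RNA, whereas polyA RNA is what the labels name, a conflict that remains. The authors pseudo-aligned reads to hg38 transcripts with kallisto 0.46.1, summed them with tximport 1.20.0 and normalized them with DESeq2 1.26.0 in R 4.1.1. The deposited signal is these normalized counts, with 13.3% to 36.3% of low values at whole multiples (within 2%) of the commonest one, so reads were not recovered and no count test was run. The table also holds 24639 empty lines and 7 lines with a lone number, which were not used.

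Members were taken by symbol from gene names paired with the gene identifiers. limma 3.58.1 in R 4.3.3 (lmFit, eBayes with trend) was run on log2 of the value plus a pseudocount of 1 over all genes with a mean of at least 10 in the libraries of the fit, with two-sided Benjamini-Hochberg adjusted p at 0.05. Each line was fitted alone, interactions in 1 fit of 18 libraries and controls in 1 fit of 9. The fit was tested on simulated data. Python 3.11.15, pandas 2.3.3, NumPy 2.4.6 and SciPy 1.17.1 did the rest. Members and lists were chosen with earlier results of these data known. All members were named, from other lists at most 4 called genes per comparison by size of change and any that a count of 5 or fewer holds, and the 5 genes nearest the mean profile.

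Alternatives were pseudocounts of 0.5 and 5, no filter, a minimum mean of 50, eBayes without a trend, fitting all 18 libraries together, equal sums, the replicate block, each library left out and, added after seeing the data, removal of a cubic length and GC trend. Libraries with the same letter deviated together over 15897 genes in MCF10A (r from 0.12 to 0.22) and MCF10AT1 (0.11 to 0.48) but not MCF10CA1h (-0.01 to 0.05). Unlike letters reached at most 0.0087 in MCF10A. In MCF10AT1, however, control b and labelled knockdown a reached 0.25, above the 0.11 between control a and labelled knockdown a. Letters were taken to pair libraries in the first 2 lines, with less support in MCF10AT1. This pairing entered the replicate block only, and the main fits used none. The letters come from the sample titles.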

Additional observations from a re-analysis of the deposited data

Results flagged for a closer look

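The change of the desmosome genes between arms was tested for a difference between lines, and the 17 differences that passed are given here as log2 differences of change, labelled knockdown minus control, from limma. In MCF10AT1 against MCF10A they were -8.28 for DSG3, -6.57 for DSC2, -6.20 for DSC3, -3.78 for DSP, -3.01 for PERP, -1.39 for PKP2, -1.06 for JUP and -0.88 for PKP3. In MCF10CA1h against MCF10AT1 they were 8.07 for DSG3, 6.13 for DSC2, 4.93 for DSC3, 3.64 for DSP, 2.59 for PERP, 2.18 for DSG2, 1.57 for JUP, 1.53 for PKP2 and 1.38 for PKP3. All 17 rest on the same 6 MCF10AT1 libraries, with 1 selected line in each arm. No outlying library was sought, since every group holds 3.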

How the results depend on the processing

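When single libraries were left out, the number of members past the threshold lay between 5 and 9 in MCF10AT1 (7 with all libraries) and was 0 throughout in MCF10A. In MCF10CA1h it lay between 0 and 1, and it was 1 (DSC3) with a mean of at least 50, with equal sums per library and with the length and GC trend removed. Between the MCF10CA1h and MCF10AT1 controls it lay between 0 and 2, and was 1 with equal sums and 3 with the trend removed, an alternative chosen after seeing the data. The number lay between 7 and 9 in both interactions with MCF10AT1 when a library was left out.

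Signs turned only in differences that did not pass. With equal sums the log2 change in MCF10CA1h was -0.035 for DSG3 and -0.058 for PKP2, and the difference of change of PKP2 from MCF10A was -0.0067. With the trend removed PKP2 in MCF10CA1h was -0.020 and PKP3 between the MCF10CA1h and MCF10A controls -0.19. Leaving out libraries gave, in MCF10A, -0.45 to 0.051 for DSG2, -0.056 to 0.22 for DSC2 and -0.11 to 0.16 for DSP, and in MCF10CA1h -0.045 to 0.14 for DSG3, -0.16 to 0.030 for DSP and -0.17 to 0.086 for PKP2. The difference of change between MCF10CA1h and MCF10A lay between -0.23 and 0.041 for DSP and between -0.027 and 0.23 for PKP2. Between the MCF10CA1h and MCF10AT1 controls DSG2 lay between -0.41 and 0.94, DSC3 between -0.0087 and 1.01 and PERP between -0.48 and 0.063. The causes were not tested.

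With the replicate block no call changed other than those of DSG2 and PKP2 in MCF10AT1 and of DSG2 between MCF10AT1 and MCF10A. Of 1373 log2 changes under alternatives 1282 kept direction and call. Equal sums per library moved the median of all genes in MCF10AT1 from 0.02 to -0.15, and in the interaction with MCF10A from -0.0045 to -0.26, with 2043 of 3384 calls lower in place of 1664 of 3437. In MCF10CA1h it gave 1034 of 2076 lower in place of 733 of 1929, and the trend removal 1324 of 2618. Equal sums also moved the median of all genes to -0.17 in the interaction of MCF10CA1h with MCF10A, to 0.10 in that with MCF10AT1, and to -0.15 and 0.16 between the controls of MCF10AT1 and MCF10A and of MCF10CA1h and MCF10AT1. Over all genes the block raised the calls in MCF10A from 409 to 1172 and in MCF10AT1 from 2091 to 3939. The unknown read depth and 3 libraries of 1 selected line per arm limit the smaller differences.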
